A study of Mus musculus with 10 samples.

Results

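Apolipoproteins are the protein coat of the lipoprotein particles by which the liver exports and takes up lipids. Examined here were 10 genes of apolipoproteins and lipoprotein assembly, Apoa1, Apoa2, Apoa4, Apoa5, Apob, Apoc2, Apoc3, Apoe, Mttp, and Lipc. They are the rows of the deposited table whose Ensembl identifier has one of these symbols in GENCODE M39, which gave all 10 listed genes of the 21939 genes in the table. RNA was sequenced from freshly isolated hepatocytes of 10 male mice at 12 days after injection of AAV8Cre, with 1 library per mouse and a poly-A, strand-specific protocol. The comparisons ask how the RNA of hepatocytes changes when the transcription factor Nrf2, the p65 subunit of NF-κB, or both are deleted in adult mice. The mice are labelled as 8 to 9 weeks old, without saying whether at injection or at sampling. The control group had 3 wild-type C57BL6/j mice, and by the study's methods the floxed mice share their genetic background. The Nrf2 KO group had 2 mice with floxed alleles of Nrf2, the p65 KO group had 2 with floxed alleles of p65, and the DKO group had 3 with both pairs floxed. All 4 groups, control included, received AAV8Cre, an adeno-associated virus in which a thyroxine-binding globulin promoter restricts Cre recombinase to hepatocytes. After Liberase perfusion of the liver, the cells were enriched by low-speed and then Percoll centrifugation. The deletion is thus directed at hepatocytes, and not at other liver cells in the preparation. Library totals were 36170874, 37309244, and 42518454 counts for control replicates 1 to 3, 37483082 and 49897382 for Nrf2 KO, 33707165 and 36267805 for p65 KO, and 40103546, 35357766, and 36777737 for DKO.

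As background, very-low-density lipoprotein is built in the endoplasmic reticulum of the hepatocyte, where the microsomal triglyceride transfer protein loads lipid onto apolipoprotein B while it is made. Apolipoproteins A-I and A-II form the backbone of high-density lipoprotein, and the small exchangeable apolipoproteins move between particles and set how fast lipases act on them and how receptors clear them. In mouse liver these genes are among the most highly expressed, and several of them lie side by side in the genome.

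The targeted genes were examined first. Nfe2l2, which encodes Nrf2 (chr2:75504739-75534985, GRCm39), had normalized counts of 2318, 1991, and 1990.2 in the control libraries, 4739 and 5005 in Nrf2 KO, 1993 and 1997 in p65 KO, and 4111, 3434, and 5239.5 in DKO. All 5 libraries labelled Nrf2 KO or DKO were thus above the other 5, with log2 fold changes against control of 1.21 and 1.02 (edgeR adjusted p = 0.00488 and 0.00347). Rela, which encodes p65 (chr19:5687493-5698161), had 1221, 1276, and 1269 in the control libraries, 1268 and 1225 in Nrf2 KO, 1183 and 1209 in p65 KO, and 1488, 1241, and 1034 in DKO. The p65 KO libraries were below all control libraries by a small margin (log2 fold change -0.07, standard error 0.138, edgeR adjusted p = 0.765), and the DKO libraries lay on both sides of them. The call of Nfe2l2 in Nrf2 KO was lost without Nrf2 KO replicate 2 (log2 fold change 1.17 from the 1 remaining Nrf2 KO library, adjusted p = 0.0816, range over all alternatives 2.3e-09 to 0.0816). For neither gene was the total lower by the test where the labels name its deletion. By RT-qPCR and Western blot of isolated hepatocytes, the study itself reported efficient deletion of both genes. It also reported lower RNA of the Nrf2 targets Nqo1 and Gclc and of the p65 target Saa3 in the respective knockouts. The table holds 1 total per gene, in which exons removed by Cre and exons that remain are added up, and Nrf2 KO, p65 KO, and DKO stand throughout for the libraries labelled so.

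The label of the cells was compared with marker genes. All 10 hepatocyte markers were detected, with Alb, the one with the most counts, between 2472214 and 4159525 normalized counts and a sum over the 10 genes between 3303009.9 and 5320258. Markers of other liver cells were present at far lower counts. The 12 genes of Kupffer cells and macrophages, liver-resident and recruited phagocytes, summed to 379, 957, and 734 in the control libraries, 815 and 264 in Nrf2 KO, 6083 and 4469.6 in p65 KO, and 2924, 2009.6, and 1661 in DKO. The p65 KO libraries had the highest sums and the DKO libraries came next, without overlap with control or Nrf2 KO. Against control, 12 of 12 were higher in p65 KO and 5 of 12 in DKO, where 8.13% and 2.61% of all genes tested were higher. None of the 12 was at 0 in every library. Cd5l had the most counts of this list, from 42.8 to 1519. The 8 genes of sinusoidal endothelial cells summed to 749.8, 1277, and 1526 (control), 1775 and 910.2 (Nrf2 KO), 5438 and 3792 (p65 KO), and 2354, 2792, and 1904 (DKO), and all 8 were higher in p65 KO and 2 in DKO. For the 8 genes of stellate cells the sums were 179, 198, and 381 (control), 278 and 169 (Nrf2 KO), 1886 and 1821 (p65 KO), and 332, 886, and 341 (DKO), with 6 higher in p65 KO and 1 in DKO. Dnase1l3 had the most counts of the endothelial list, up to 1484, and Dcn of the stellate list, up to 890.3, and neither list had a gene at 0 in every library. In p65 KO the sums of both lists were above those of all other libraries. In Nrf2 KO 0 of 12, 0 of 8, and 0 of 8 genes of the 3 lists changed in edgeR, with 0, 0, and 1 at an unadjusted p under 0.05 and 0 by DESeq2 and by limma in each. Without p65 KO replicate 1, p65 KO had 6 of 12, 2 of 8, and 3 of 8 higher, and without control replicate 1 it had 10, 7, and 3. The counts of DKO rested on single libraries, with 0 of 12 Kupffer cell and macrophage genes higher without DKO replicate 1, 0 without control replicate 1, 1 without control replicate 3, and 3 without DKO replicate 2 or control replicate 2. All DKO libraries were above control for 12 of 12, 6 of 8, and 3 of 8 genes of the 3 lists (13.2% of all genes). Of the hepatocyte markers, 1 was higher in p65 KO (Cps1, 0.56, edgeR adjusted p = 0.0479) and 2 in DKO. In Nrf2 KO 0 of 10 changed in edgeR, with 4 at an unadjusted p under 0.05, 0 by DESeq2, and 0 by limma, against 0.726%, 9.38%, 2.35%, and 0.762% of all genes. Of the 10 log2 fold changes in Nrf2 KO, 9 were above 0 (median 0.30), against 5 of 10 in p65 KO and 5 of 10 in DKO.

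Lists for 4 more cell types were examined. The 6 genes of cholangiocytes summed to between 104 and 255, nearly all from Sox9, with Krt19 and Cftr at no more than 3 counts in any library. The 6 genes of T and NK cells summed to at most 16.3, with Nkg7 as the gene with the most counts, and the 6 genes of neutrophils to at most 54.9, with Csf3r as the highest, and both of these maxima were in p65 KO replicate 1. Of the 5 genes listed as erythroid, Alas2 had the most counts, from 3039 to 4623, and the 4 globin genes made up the rest. The highest library of Alas2 was 1.52 times its lowest, against 23.8 times for Hba-a1 and 26.6 times for Hbb-bs. Which cells the Alas2 RNA came from was not tested. Counts allowed a test of 2 of 6, 3 of 6, 4 of 6, and 5 of 5 genes. Of these 4 lists, 1 gene changed against control in edgeR, Csf3r in p65 KO (log2 fold change 3.38, adjusted p = 0.0341). DESeq2 called 1 neutrophil gene in p65 KO, 1 cholangiocyte gene in Nrf2 KO and 1 in DKO, and 3 of 5 erythroid genes in DKO, where all 5 log2 fold changes were above 0 (median 2.06). Of all genes, DESeq2 called 19.8% in p65 KO, 2.35% in Nrf2 KO, and 10.6% in DKO. All 4 globin genes were highest in DKO replicate 1, with Hbb-bs at 452, 162, and 91.5 in DKO replicates 1 to 3. In DKO replicate 3, Hba-a2 (14.9) and Hbb-bt (4.58) lay within the control range, and Hba-a1 (52.6) and Hbb-bs above it. In such bulk samples, fewer cells of a type and less RNA per cell cannot be told apart. The part of these other cells in the differences between genotypes that follow was not tested.

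All 10 genes were expressed in every library and passed the filter on low counts. Their summed normalized counts were 1241641, 1144518, and 1322427 in the control libraries, 1302851 and 1436538 in Nrf2 KO, 1014466 and 1005622 in p65 KO, and 1245468, 1192995, and 1027483 in DKO. Both p65 KO libraries were below all 3 control libraries, both Nrf2 KO libraries were within or above the control range, and the DKO libraries overlapped with control. As a share of all counts of a library, without this scaling, the 10 genes made up 3.11%, 3.12%, and 3.33% (control), 3.52% and 3.56% (Nrf2 KO), 2.96% and 2.93% (p65 KO), and 2.95%, 3.01%, and 2.44% (DKO). By this measure both Nrf2 KO libraries were above all control libraries, and all p65 KO and DKO libraries were below them. To compare levels between genes, mean normalized counts in control were divided by transcript length. Because these genes have transcripts of several lengths and the counts are per gene, the level is given for the longest and the shortest transcript with a consensus coding sequence. Per kilobase, Apoa1 had 204345 to 222095, Apoe 140631 to 342752, and Apoa2 63579 to 458979 normalized counts, and the order among these 3 depends on the transcript taken. Apoc3 (22213 to 22913) and Apoa5 (17178 to 18441) followed, then Apob with 9817 and Apoc2 with 5375 to 9119.9. The lowest levels were those of Mttp (3157 to 4076), Lipc (3358), and Apoa4 (2814). With the longest transcripts, the levels of Mttp, Lipc, and Apoa4 differed from each other by less than the SD of Apoa4 in control (986 per kilobase, n = 3), so that their order is not firm. Apob and Apoc2 differed by less than the SD of Apob (2206, n = 3) with the shortest Apoc2 transcript, and by more with the longest. The spread also differed within genes, since the highest of the 10 libraries was 1.36 times the lowest for Apoe and 1.36 times for Mttp, but 2.55 times for Apob and 2.4 times for Apoc2.

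The genes lie on 5 chromosomes. Apoa1 (chr9:46139878-46142212), Apoc3 (chr9:46142527-46146934), Apoa4 (chr9:46151994-46154757), and Apoa5 (chr9:46179931-46183217) form a cluster in which Apoc3 alone is on the reverse strand, and Lipc (chr9:70705410-70859508) is farther along the same chromosome. Apoc2 (chr7:19405504-19411877) and Apoe (chr7:19430034-19434947) are in a second cluster with Apoc1 and Apoc4. Apoa2 (chr1:171049125-171053948), Apob (chr12:8027648-8066835), and Mttp (chr3:137795612-137850729) lie alone. Of the 31-base words in the transcripts of each gene, at most 2.36% occurred in transcripts of another gene, except for Apoc2 with 44.5%. Most of these were shared with Apoc2l, a readthrough gene model that joins an exon of Apoc4 to exons of Apoc2, so that reads could have been divided between both and the values of Apoc2 are uncertain. Genes on the opposite strand overlap Apoa4, Apoa5, and Apoe, and the libraries were strand-specific.

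All normalized counts are scaled by TMM, which sets library sizes so that most genes do not differ. The test was edgeR's quasi-likelihood test over 13641 genes, a gene was called changed when its adjusted p did not exceed 0.05, and counts with the added requirement of a 2-fold change are given beside it. The 3 comparisons with control use the same control libraries. In Nrf2 KO, 0 of the 10 genes changed in edgeR, against 0.726% of all genes tested, with 1 gene at an unadjusted p under 0.05 and 0 by DESeq2 and 0 by limma, rules under which 9.38%, 2.35%, and 0.762% of all genes passed. In p65 KO, 1 of 10 changed, Lipc, which was lower, against 14.9% of all genes in either direction and 6.77% lower. There were 4 genes at an unadjusted p under 0.05, 4 by DESeq2, and 1 by limma, against 31.6%, 19.8%, and 16.3% of all genes. In DKO, 0 of 10 changed in edgeR against 5.45% of all genes, with 1 at an unadjusted p under 0.05, 1 by DESeq2, and 0 by limma, against 22.5%, 10.6%, and 5.97% of all genes. None of the 10 changed by at least 2-fold in edgeR, where 0.55%, 6.59%, and 2.38% of all genes did. In either direction, the share of the 10 genes in p65 KO was above that of all genes by DESeq2 and at an unadjusted p under 0.05, and below it by edgeR and limma. The 95% intervals of the fold changes stayed within 2-fold in both directions for 9 genes in Nrf2 KO, all but Apoa4, for 8 in p65 KO, all but Apoa4 and Apob, and for 9 in DKO, all but Apoc2.

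The direction of the differences was less even than these counts. In p65 KO all 10 log2 fold changes were below 0, with a median of -0.33 against 0.00 over all genes, of which 49.8% were below 0. This depends in part on the scaling, since 9 of 10 were below 0 with median-of-ratios factors or equal upper quartiles and 7 of 10 with equal totals, a scaling that moves the median of all genes to 0.18. Relative to the median of all genes, 10 of 10 were lower with TMM, median-of-ratios factors, and equal upper quartiles, and 9 with equal totals. Both p65 KO libraries lay below all control libraries for 6 of the 10 genes and above them for 0, where the shares of all genes were 23.8% and 26.2%. In Nrf2 KO, 5 of 10 log2 fold changes were below 0, with a median of 0.07 against 0.00 over all genes. Both libraries were above control for 2, Apoa1 and Apoe, and below for 1, Mttp, against 14.8% and 13.6% of all genes. In DKO 6 of 10 were below 0, with a median of -0.09 against 0.02. All 3 DKO libraries were below control for 1, Apoa2, and above for 0, against 13.2% and 13.2% of all genes.

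**Figure D1:**
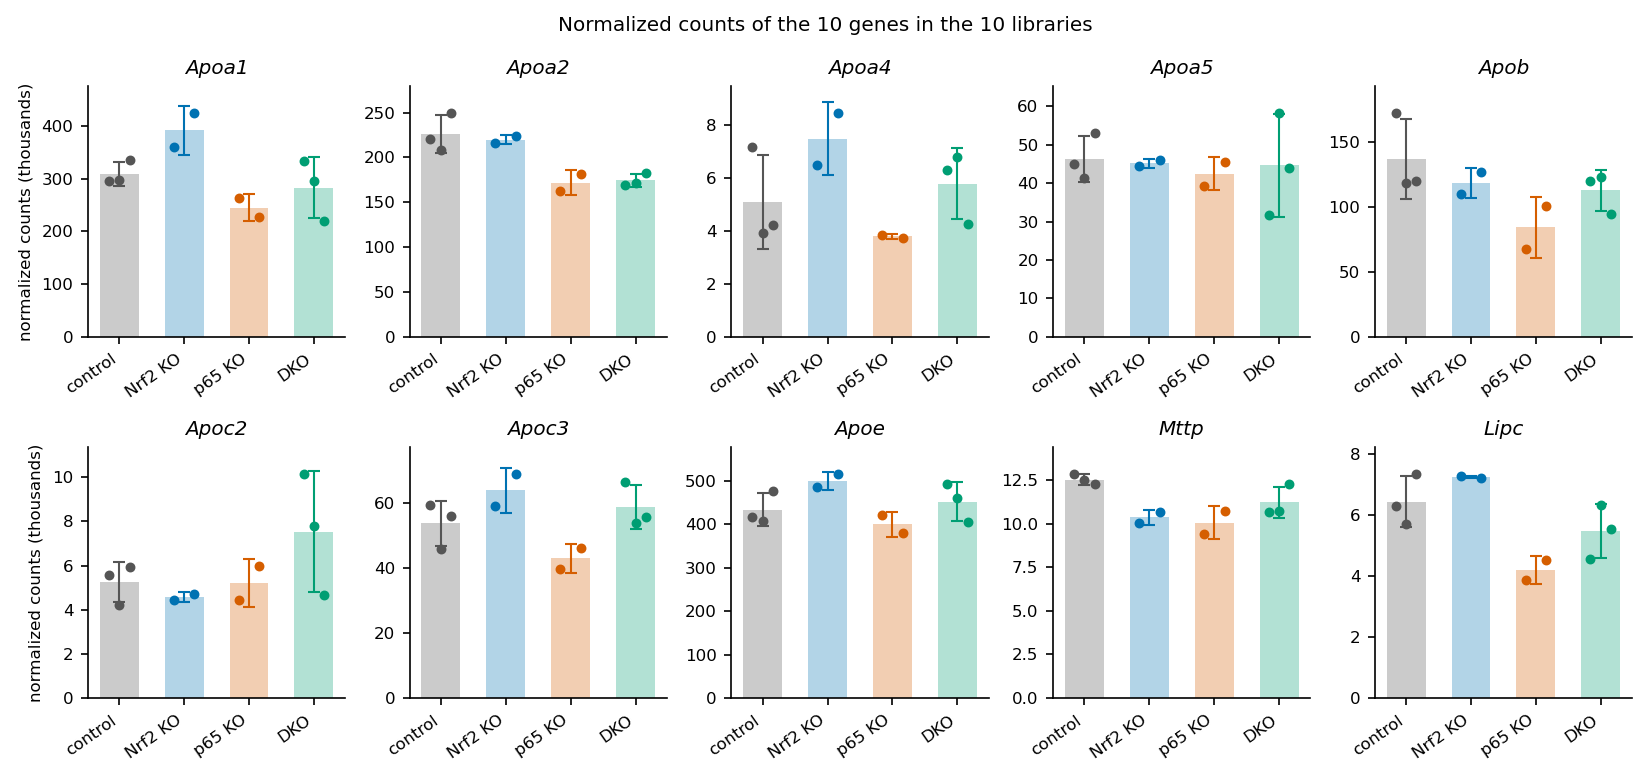
Normalized counts (linear axes from 0, in the unit marked on each axis) of each of the 10 genes, with 1 point per library, bars for the mean of a genotype, and error bars for the SD (n = 3 control, 2 Nrf2 KO, 2 p65 KO, and 3 DKO libraries). Both p65 KO libraries lie below all control libraries for 6 genes, and for Lipc they lie below all other libraries.

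**Figure D2:**
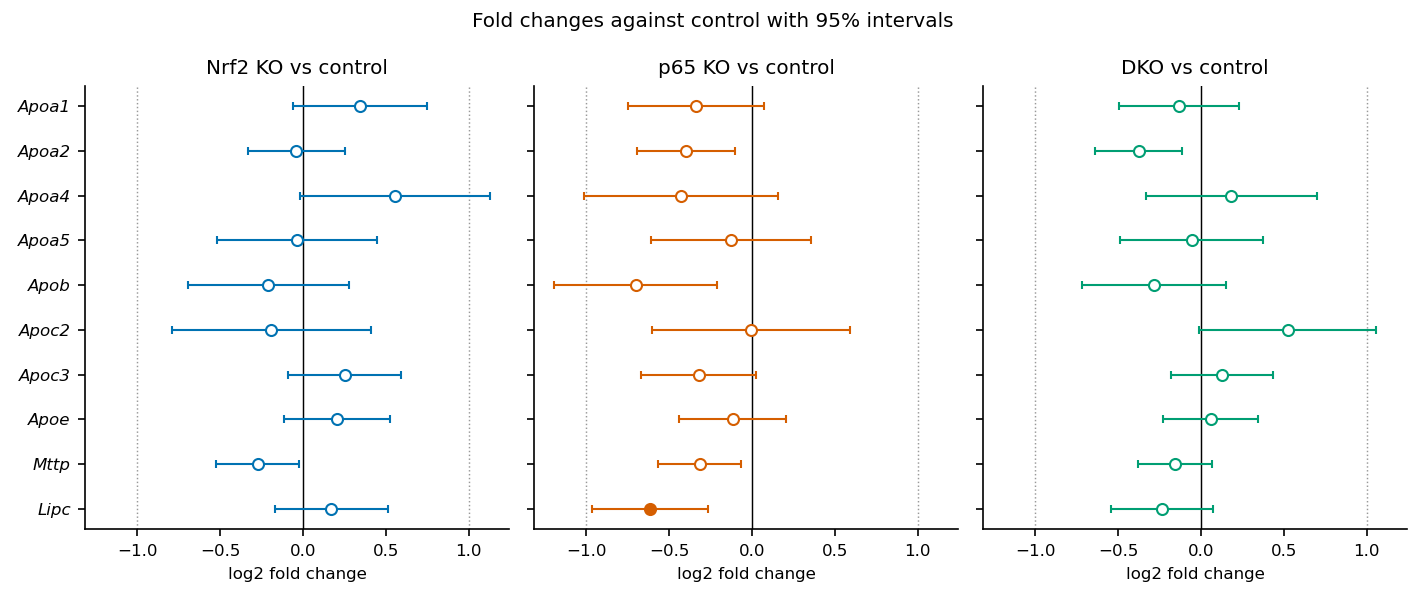
Log2 fold changes against control from edgeR for the 10 genes, in 1 panel per genotype, with bars for 95% intervals, a solid line at 0, and dotted lines at a 2-fold change. The only filled point, which marks an adjusted p of at most 0.05, is Lipc in p65 KO at -0.62, and all points in p65 KO are below 0 with TMM scaling, whereas with equal totals 7 of 10 are.

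Lipc encodes hepatic lipase, which is secreted by hepatocytes and hydrolyzes triglyceride and phospholipid in remnant particles and high-density lipoprotein. Its normalized counts were 6306, 5698, and 7339.7 in the control libraries, 7286 and 7221 in Nrf2 KO, 3879.8 and 4529 in p65 KO, and 4549.6, 6337, and 5554 in DKO. The p65 KO libraries were the lowest of all 10, DKO replicates 1 and 3 lay between them and the control libraries, and DKO replicate 2 was inside the control range. Group means were 6448 ± 830.2 (SD, n = 3) for control, 7254 ± 45.8 (SD, n = 2) for Nrf2 KO, 4204 ± 459 (SD, n = 2) for p65 KO, and 5480.4 ± 896 (SD, n = 3) for DKO. In p65 KO the log2 fold change was -0.62 (standard error 0.158, 95% interval -0.97 to -0.27, edgeR adjusted p = 0.0273), a level 0.652 times that of control. It was 0.17 in Nrf2 KO and -0.23 in DKO (edgeR adjusted p = 0.827 and 0.344). The call in p65 KO was narrow. With each of 4 libraries left out the adjusted p from edgeR rose above 0.05, to 0.0641 without control replicate 1, 0.0745 without control replicate 3, 0.196 without p65 KO replicate 1, and 0.055 without p65 KO replicate 2, where the remaining p65 KO library was assumed to vary like the other groups. With equal totals it was 0.0994, with the replicate number as a block 0.0651, and over all alternatives it ranged from 0.00411 to 0.196, with a log2 fold change always between -0.73 and -0.44. Markers of Kupffer, endothelial, and stellate cells had their highest sums in the same 2 libraries, and their part in this difference was not tested.

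Apob encodes the structural protein of very-low-density lipoprotein, and 1 copy stays with each particle until it is cleared. The normalized counts of Apob were 172258, 118084, and 120008 in the control libraries, 109882 and 126535 in Nrf2 KO, 67549.8 and 100524 in p65 KO, and 120149.7, 122932, and 94426 in DKO. Control replicate 1 was the highest and p65 KO replicate 1 the lowest of all libraries. Both p65 KO libraries were below all control libraries, while Nrf2 KO and DKO overlapped with them. Log2 fold changes of Apob were -0.21 for Nrf2 KO, -0.70 for p65 KO, and -0.28 for DKO (standard errors 0.221, 0.224, and 0.197, edgeR adjusted p = 0.857, 0.0582, and 0.422). In p65 KO the difference thus missed the threshold in edgeR, with an interval of -1.20 to -0.21. It was called by DESeq2 (adjusted p = 0.0119), without the filter on low counts (0.044 in edgeR), and without p65 KO replicate 2 (0.0456, log2 fold change -1.02), and the adjusted p ranged from 0.0119 to 0.378 over all alternatives. Over all alternatives the log2 fold change of Apob in p65 KO ranged from -1.02 to -0.44. The mean in p65 KO was 84037 ± 23316 (SD, n = 2).

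Mttp encodes the large subunit of the microsomal triglyceride transfer protein, without which apolipoprotein B is not lipidated and is degraded. It had normalized counts of 12818, 12508, and 12239 in the control libraries, 10041 and 10660.0 in Nrf2 KO, 9393 and 10726 in p65 KO, and 10681, 10740.4, and 12246 in DKO. The 3 control libraries were close together, with a coefficient of variation of 2.31%, and all libraries of Nrf2 KO and p65 KO and 2 of the 3 DKO libraries were below them. DKO replicate 3 lay just inside the control range. Its log2 fold changes were -0.27 for Nrf2 KO, -0.32 for p65 KO, and -0.16 for DKO (standard errors 0.114, 0.114, and 0.101, edgeR adjusted p = 0.473, 0.0861, and 0.381). The unadjusted p was 0.0348 in Nrf2 KO and 0.0185 in p65 KO, which did not pass adjustment over all genes. DESeq2 called Mttp in p65 KO (adjusted p = 0.0338, range over all alternatives 0.0338 to 0.442). The interaction asks whether loss of Nrf2 had another effect with p65 deleted than without, as the log2 ratio of DKO to p65 KO less the log2 ratio of Nrf2 KO to control. It was 0.43 for Mttp (95% interval 0.08 to 0.79, unadjusted p = 0.0213, edgeR adjusted p = 0.279). Over all alternatives the interaction of Mttp ranged from 0.16 to 0.53, and its log2 fold change in p65 KO from -0.41 to -0.14.

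Apoa1 and Apoa2 encode the main proteins of high-density lipoprotein, and apolipoprotein A-I also activates the enzyme that esterifies cholesterol in plasma. Apoa1 had normalized counts of 295018, 297064, and 336053 in the control libraries, 359324 and 424926 in Nrf2 KO, 263005 and 227255 in p65 KO, and 333607, 294623, and 219303 in DKO. The Nrf2 KO libraries were the 2 highest of all, p65 KO lay below control, and the DKO libraries ranged from the lowest of all 10 to within the control range. For Apoa1 the log2 fold changes were 0.34 for Nrf2 KO, -0.34 for p65 KO, and -0.13 for DKO (standard errors 0.183, 0.186, and 0.165, edgeR adjusted p = 0.635, 0.243, and 0.675), so that none of these differences passed the test. Apoa2 had 220622, 208491, and 249717 in the control libraries, 216094 and 223834 in Nrf2 KO, 162045 and 181655 in p65 KO, and 168896, 171637, and 182281 in DKO. All p65 KO and DKO libraries were below all control and Nrf2 KO libraries for Apoa2, and the 5 values were close to each other. The log2 fold change of Apoa2 was -0.04 for Nrf2 KO, -0.40 for p65 KO, and -0.38 for DKO (standard errors 0.132, 0.134, and 0.118, edgeR adjusted p = 0.972, 0.0686, and 0.0925). The 95% interval was -0.69 to -0.10 in p65 KO and -0.64 to -0.12 in DKO. DESeq2 called Apoa2 in both (adjusted p = 0.00698 and 0.00473), and scaling to equal totals did in DKO only (edgeR adjusted p = 0.0299). Over all alternatives the adjusted p ranged from 0.00698 to 0.345 in p65 KO and from 0.00473 to 0.247 in DKO.

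The next genes act on triglyceride in plasma. Apolipoprotein C-III, from Apoc3, inhibits the breakdown of triglyceride-rich particles and their uptake. Normalized counts of Apoc3 were 59513, 45993, and 55891 in the control libraries, 59118 and 68859 in Nrf2 KO, 39859.8 and 46186 in p65 KO, and 66390.1, 53878, and 55863 in DKO. The p65 KO libraries were at the lower end and overlapped with control replicate 2, and the DKO libraries were all above p65 KO. Its log2 fold change against control was 0.25 for Nrf2 KO, -0.32 for p65 KO, and 0.13 for DKO (standard errors 0.155, 0.158, and 0.14, edgeR adjusted p = 0.707, 0.189, and 0.632). The neighboring gene Apoa5 encodes apolipoprotein A-V, which promotes lipolysis, and had 44935, 41222, and 52983 in the control libraries, 44388 and 46011 in Nrf2 KO, 39381 and 45491 in p65 KO, and 31615, 58312, and 43886 in DKO. The groups overlapped for Apoa5, and DKO held both the lowest and the highest library. Its log2 fold change was -0.04 for Nrf2 KO, -0.13 for p65 KO, and -0.06 for DKO (standard errors 0.218, 0.218, and 0.195, edgeR adjusted p = 0.982, 0.728, and 0.891). Apoa4, whose product is a component of chylomicrons and high-density lipoprotein, had 7167, 3930.5, and 4223 in the control libraries, 6518 and 8477 in Nrf2 KO, 3865 and 3729 in p65 KO, and 6295, 6819.9, and 4281 in DKO. Control replicate 1 lay apart from the other control libraries for Apoa4, between the 2 Nrf2 KO libraries, whereas both p65 KO libraries were just below control replicate 2. The log2 fold change was 0.55 for Nrf2 KO, -0.43 for p65 KO, and 0.18 for DKO (standard errors 0.26, 0.266, and 0.235, edgeR adjusted p = 0.558, 0.296, and 0.681). These values moved with single libraries, and without control replicate 1 they were 0.88, -0.10, and 0.51. Over all alternatives they ranged from 0.35 to 0.88, from -0.58 to -0.10, and from 0.03 to 0.51, none of them called. With a coefficient of variation of 35.1% in control, Apoa4 was the most variable of the 10 genes in that group.

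Apolipoprotein C-II, from Apoc2, is the activator of lipoprotein lipase. Apoc2 had normalized counts of 5549, 4215, and 5941 in the control libraries, 4432 and 4729 in Nrf2 KO, 4439.6 and 5988 in p65 KO, and 10125, 7782, and 4662 in DKO. The DKO libraries were widely spread, with replicates 1 and 2 the 2 highest of all libraries and replicate 3 inside the control range. For Apoc2 the log2 fold changes were -0.19 for Nrf2 KO, -0.01 for p65 KO, and 0.52 for DKO (standard errors 0.272, 0.271, and 0.243, edgeR adjusted p = 0.9, 0.993, and 0.231). Without DKO replicate 3, the value in DKO was 0.78 (edgeR adjusted p = 0.0418), without DKO replicate 1 it was 0.25 (edgeR adjusted p = 0.559), and over all alternatives the adjusted p ranged from 0.0418 to 0.559. Apoc2l (chr7:19405509-19415348), whose reads may not be separable from those of Apoc2, had 1492, 866, and 1201 in the control libraries, 1389 and 1317 in Nrf2 KO, 555 and 328 in p65 KO, and 758, 736, and 872 in DKO. Apoc2l was lower in p65 KO (log2 fold change -1.43, edgeR adjusted p = 0.006) and was named after its values were seen. With the counts of both gene models summed, an alternative chosen after seeing the data, the log2 fold change of Apoc2 was -0.11 for Nrf2 KO, -0.18 for p65 KO, and 0.37 for DKO (edgeR adjusted p = 0.945, 0.652, and 0.343).

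Apolipoprotein E, from Apoe, is the ligand by which remnant particles bind to receptors on hepatocytes. Apoe had normalized counts of 417455, 407313, and 478034 in the control libraries, 485769 and 515286 in Nrf2 KO, 421049 and 379541 in p65 KO, and 493159.9, 459935, and 404982 in DKO. Both Nrf2 KO libraries were above all control libraries, and p65 KO and DKO overlapped with control. The log2 fold change was 0.20 for Nrf2 KO, -0.12 for p65 KO, and 0.06 for DKO (standard errors 0.145, 0.146, and 0.13, edgeR adjusted p = 0.748, 0.622, and 0.821), and the 95% interval was -0.11 to 0.52, -0.44 to 0.20, and -0.23 to 0.35. Macrophages also express Apoe. The 12 Kupffer cell and macrophage markers summed to at most 6083 normalized counts, in p65 KO replicate 1, where Apoe had 421049, and the share of Apoe RNA that came from macrophages was not tested. In p65 KO, where all 12 markers were higher, the level of Apoe was 0.922 times that of control. This is a net level over all cells in the preparation, and marker sums do not measure the Apoe RNA of macrophages.

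DKO was also compared with each single knockout. Against p65 KO, 0 of 10 genes changed in edgeR, where 4.11% of all genes did, with 3 at an unadjusted p under 0.05, 1 by DESeq2 (Apoc3, adjusted p = 0.0492), and 0 by limma, against 22.5%, 9.46%, and 4.43% of all genes. All 10 log2 fold changes were above 0, with a median of 0.29 against 0.00 over all genes, and with equal totals 5 of 10 were, since that scaling moves the median of all genes to -0.27. Relative to the median of all genes, 0 of 10 were lower with either scaling. Without p65 KO replicate 1, 8 of 10 log2 fold changes were above 0, and 9 were without DKO replicate 2 or 3. The p65 KO libraries are the same as in the comparison with control, so the directions of both comparisons are not independent. The largest differences were those of Apoa4 (0.61), Apoc2 (0.53), Apoc3 (0.45), Apob (0.42), and Lipc (0.38, edgeR adjusted p = 0.185), and for Apoa2 the value was 0.02. Against Nrf2 KO, 0 of 10 changed in edgeR, where 0.513% of all genes did, with 4 at an unadjusted p under 0.05, 0 by DESeq2, and 0 by limma, against 14.4%, 3.69%, and 0.77% of all genes. The 4 were Apoa1 (-0.47), Apoa2 (-0.34), Lipc (-0.40), and Apoc2 (0.72), all with an edgeR adjusted p between 0.265 and 0.274. In the interaction, 0 of 10 changed in edgeR, against 0.469% of all genes, with 1 at an unadjusted p under 0.05, 0 by DESeq2, and 0 by limma, against 13.8%, 2.93%, and 0.506% of all genes. For Lipc it was 0.21 (95% interval -0.27 to 0.70, edgeR adjusted p = 0.715), so that the effect of p65 loss on Lipc was not shown to differ between mice with and without Nrf2. Over all alternatives the interaction of Lipc ranged from -0.06 to 0.34. Of the 10 interaction values, 2 were below 0 with TMM and 7 with equal totals.

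Other genes of lipoprotein metabolism were taken from 5 lists. Over all genes tested, 8.13% were higher and 6.77% lower in p65 KO, 2.61% and 2.84% in DKO, and 0.132% and 0.594% in Nrf2 KO. Of 12 other apolipoprotein genes, 11 could be tested, and Apod was at 0 in every library. In p65 KO 1 was higher and 1 lower, with a median log2 fold change of -0.02. Saa4, which encodes a constitutive serum amyloid A protein of high-density lipoprotein, was higher (0.52, edgeR adjusted p = 0.0306). Apoc4, in the cluster with Apoe, was lower (-0.52, edgeR adjusted p = 0.0454), and it shares sequence with Apoc2l. In DKO Saa2, an acute-phase serum amyloid A gene, was higher, with 1736, 686, and 1008 normalized counts against 554, 179, and 188 in control (log2 fold change 1.90, edgeR adjusted p = 0.0437). In p65 KO its log2 fold change was 1.61, with 697 and 1163 normalized counts, both above control (edgeR adjusted p = 0.0575). Saa2 has a close paralog, Saa1, so that their reads may not be fully separated. The medians of this list were 0.10 in Nrf2 KO and 0.14 in DKO, and 0 of 11 changed in Nrf2 KO in edgeR, with 0 at an unadjusted p under 0.05, 0 by DESeq2, and 0 by limma.

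The list of assembly and secretion of very-low-density lipoprotein held 16 genes, of which 4 were lower and 1 higher in p65 KO, 2 were lower in DKO, and 1 was lower in Nrf2 KO. The median log2 fold changes were -0.07, -0.16, and -0.01. Apobec1, the enzyme that edits Apob RNA so that the shorter form of the protein is made, had normalized counts of 542, 459, and 577 in the control libraries, 325 and 371 in Nrf2 KO, 227 and 268 in p65 KO, and 319.8, 258, and 230.0 in DKO. All 7 knockout libraries were below all 3 control libraries. Apobec1 had log2 fold changes of -1.09 for p65 KO, -0.97 for DKO, and -0.59 for Nrf2 KO (edgeR adjusted p = 0.0045, 0.00727, and 0.229). Ces1d, a carboxylesterase that mobilizes stored triglyceride for secretion, had 44735, 42045, and 36288 in the control libraries, 20375 and 15874 in Nrf2 KO, 22482 and 27588 in p65 KO, and 10515, 13329, and 17048 in DKO. It too was below control in all 7 knockout libraries, with log2 fold changes of -1.18 for Nrf2 KO, -0.71 for p65 KO, and -1.59 for DKO (edgeR adjusted p = 0.0327, 0.0413, and 0.00138), and it belongs to a family of genes with similar sequence. In p65 KO Sar1b, a GTPase of the vesicles that carry large lipoproteins, and Aadac, an arylacetamide deacetylase, were lower (-0.69 and -0.59, edgeR adjusted p = 0.0157 and 0.0162). Dgat2, which makes triglyceride, was higher in p65 KO (0.85, edgeR adjusted p = 0.0138).

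Among 12 genes of lipases and plasma remodelling, 1 was higher in p65 KO and 1 lower in DKO, with medians of 0.07 and 0.06. The 2 were Gpld1, a phospholipase carried on high-density lipoprotein (0.54, edgeR adjusted p = 0.0101), and Lpl, lipoprotein lipase (-1.30, edgeR adjusted p = 0.0328). The adult hepatocyte makes little lipoprotein lipase, and Lpl had between 175 and 957 normalized counts over all libraries. Of 13 receptors and cholesterol transporters, 3 were higher in p65 KO and 2 lower in DKO, with medians of 0.09 and 0.03. Mylip, which targets the low-density lipoprotein receptor for degradation, was higher in p65 KO (1.99, edgeR adjusted p = 0.00976). So was Apobr, a receptor of macrophages, with 77.2 and 15.1 normalized counts against at most 4.92 in control (3.86, edgeR adjusted p = 0.0227). In DKO Abcg5 and Abcg8, which together export sterols into bile, were lower (-0.66 and -0.75, edgeR adjusted p = 0.0131 and 0.0168). In Nrf2 KO, where both libraries were also below control, their values were -0.63 and -0.57 (edgeR adjusted p = 0.0772 and 0.219). In Nrf2 KO the medians of both lists were -0.02 and 0.14, and 0 of 12 and 0 of 13 changed in edgeR, with 1 and 2 at an unadjusted p under 0.05, 0 and 2 by DESeq2, and 0 and 0 by limma.

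Of 22 transcription factors that act on apolipoprotein genes, 6 were higher and 1 lower in p65 KO, with a median of -0.01, and 1 was higher in DKO, with a median of -0.04. Hnf4a, a nuclear receptor known to act on many apolipoprotein genes, had normalized counts of 20459, 19599, and 22455 in the control libraries, 18063 and 19795 in Nrf2 KO, 28132 and 29252 in p65 KO, and 18409.7, 19479, and 20048 in DKO. The p65 KO libraries were above all others (log2 fold change 0.46, edgeR adjusted p = 0.0222). Foxa3 (1.01), Prox1 (0.88), and Srebf1 (1.08) were also higher in p65 KO, and Nr0b2, a corepressor, was lower (-1.16), with edgeR adjusted p of 0.0022, 0.00993, 0.021, and 0.0266. In DKO Srebf1, a regulator of lipogenesis, was higher (1.39, edgeR adjusted p = 0.0103), and in Nrf2 KO its value was 1.09, with both libraries above control (edgeR adjusted p = 0.115). In Nrf2 KO 0 of 22 changed in edgeR, with a median of 0.03, 5 at an unadjusted p under 0.05, 2 by DESeq2, and 0 by limma.

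Many of these calls rested on single libraries. Of the 18 genes of the 5 lists changed in p65 KO, 2, Foxa3 and Prox1, remained without p65 KO replicate 1 (adjusted p of the others from 0.0524 to 0.311 in edgeR). There remained 10 without p65 KO replicate 2, 7 without control replicate 1, 12 without control replicate 2, and 12 without control replicate 3, where the lost calls had an adjusted p of up to 0.141, 0.136, 0.0966, and 0.104. Leaving out Nrf2 KO replicate 1 or 2 kept 15 each, DKO replicate 1 or 3 kept 17 each, equal totals kept 14, and the replicate number as a block kept 12. Foxa3 kept its call under each alternative. Apoc4 lost its call most often, and Apobec1, Dgat2, Gpld1, and Mylip only without p65 KO replicate 1. Of the 7 calls in DKO, Ces1d, Apobec1, and Abcg5 held under each alternative. Saa2 and Lpl were lost when only control and DKO were fitted, with the replicate block, and without control replicate 2, control replicate 3, or DKO replicate 3, Saa2 also without DKO replicate 1 or any Nrf2 KO or p65 KO library, and Lpl also without control replicate 1 or DKO replicate 2. Srebf1 was lost without control replicate 1 and Abcg8 without DKO replicate 1, and the adjusted p of these lost calls was at most 0.13. Ces1d in Nrf2 KO was lost without control replicate 1 or 2, without either Nrf2 KO library (adjusted p up to 0.44 in edgeR, without Nrf2 KO replicate 2), without either p65 KO library, and with the block.

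Because Lipc and Apob had the largest log2 fold changes of the 10 genes in p65 KO, the 250 bases before the start of their Ensembl canonical transcripts are shown, read from GRCm39 in the direction of the gene. The Lipc window (chr9:70842091-70842340, reverse strand) lies in an intron of longer Lipc transcripts and inside the body of another gene model, ENSMUSG00000143615, and the Apob window (chr12:8027398-8027647, forward strand) lies upstream of the gene inside the body of a further gene model, Gm33037, and neither touches an annotated exon.
Lipc: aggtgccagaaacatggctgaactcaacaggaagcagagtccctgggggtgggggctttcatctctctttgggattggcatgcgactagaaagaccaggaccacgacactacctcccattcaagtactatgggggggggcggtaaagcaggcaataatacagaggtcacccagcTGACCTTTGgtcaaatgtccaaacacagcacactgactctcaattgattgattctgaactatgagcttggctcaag
Apob: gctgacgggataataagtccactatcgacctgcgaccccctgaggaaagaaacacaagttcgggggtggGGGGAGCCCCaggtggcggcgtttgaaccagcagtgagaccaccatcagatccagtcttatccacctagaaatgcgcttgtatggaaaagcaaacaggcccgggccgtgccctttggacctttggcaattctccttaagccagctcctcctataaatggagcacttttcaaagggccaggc
The capitals mark matches, found on either strand, to motifs of transcription factors. In Lipc this is CAAAGGTCA on the other strand, a spelling of the paired half-sites bound by HNF4 that was added after the sequences had been seen. In Apob it is a match to the NF-κB consensus, 181 bases before the start, which reads as a match on both strands. Such windows of all 13637 tested genes that could be placed were searched in the same way. The NF-κB consensus was found in 8.27% of them and in 2 of the 10 genes, Apob and Apoe. CAAAGGTCA was found in 0.345% and in 2 of 10, Apoc3 and Lipc. Since this spelling was chosen with these windows in view, its share among the 10 cannot be weighed against that of all genes. CAAAGTCCA, another spelling for HNF4, was found in 0.403% and in 0 of 10. The core of the antioxidant response element, TGACNNNGC, was in 10.6% and in 0 of 10. These are matches of letters in 1 window per gene, several genes have further transcript starts, and binding was not measured.

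The pattern of Lipc over the 10 libraries was most like those of Bphl, Aadac, and Coq9. Pearson correlations of log2(normalized count + 1) were 0.946, 0.944, and 0.936 among 10185 genes whose mean normalized count was 50 or more, given as a description. Aadac is on the list of assembly genes, Bphl encodes a serine hydrolase, and Coq9 a protein of coenzyme Q synthesis. Aadac had 13767 and 16195 normalized counts in p65 KO, between 20686 and 24307 in control and Nrf2 KO, and between 18660.1 and 22212 in DKO.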

How the data were processed

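The authors ran Salmon 1.10.3 with the gene models of GENCODE M33 on GRCm39, and the deposited table has 1 rounded value of estimated counts for each gene and library. Although its name says normalized, library totals and size factors in it differ, so it was analysed as unnormalized estimated counts. All 10 columns matched a label by name.

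A gene needed 10 or more counts in sum over the 10 libraries, which 13641 did. The test was edgeR 4.0.16 in R 4.3.3 (TMM, quasi-likelihood, 1 model of the 4 genotypes, Benjamini-Hochberg adjustment within each comparison), and intervals used its standard errors and degrees of freedom. Alternatives were DESeq2 1.42.0, limma 3.58.1 on log2(normalized count + 1), other scalings and filters, a block for the replicate number, a fit restricted to the genotypes of a comparison, and each library left out in turn. The procedure was tested on simulated data. Gene names, positions, transcripts, and promoter windows came from GENCODE M39 and the GRCm39 genome, with Python 3.11.15 and matplotlib 3.10.9.

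Named are all 10 genes, the targeted genes, per list and comparison with control up to 5 changed genes with the lowest adjusted p, the marker with the most counts and markers at 0, and the 3 genes most correlated with a changed member. The members and lists were chosen with earlier results of these data known.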

Additional observations from a re-analysis of the deposited data

Results flagged for a closer look

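Foxa3, which encodes a forkhead factor of hepatocytes, was the only gene among the 10 and the 5 lists whose interaction passed adjustment over all genes. It had normalized counts of 2236, 2153, and 2218 in the control libraries, 2749 and 2848 in Nrf2 KO, 4136 and 4736 in p65 KO, and 2831, 1958, and 2321 in DKO. The p65 KO libraries were above all others, and the DKO libraries overlapped with control. In the interaction test, the log2 ratio of DKO to p65 KO less the log2 ratio of Nrf2 KO to control was -1.25 (standard error 0.199, edgeR adjusted p = 0.0294). The log2 fold change was 0.35 between Nrf2 KO and control and -0.90 between DKO and p65 KO.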

How the results depend on the processing

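The number of the 10 genes changed in p65 KO, 1 in the main test, was 4 by DESeq2 (Apoa2, Apob, Mttp, and Lipc), 2 without the filter on low counts (Apob and Lipc), and 0 with equal totals. Leaving out single libraries gave 0 to 1, where the 1 without p65 KO replicate 2 was Apob at 2-fold or more in place of Lipc, so that the count of 2-fold changes ranged from 0 to 1. In DKO, with 0 in the main test, it was 1 by DESeq2 and with equal totals (Apoa2), and 0 to 1 with single libraries left out. Between DKO and p65 KO it was 1 by DESeq2. With Apoc2 and Apoc2l summed, which was chosen after seeing the data, no count moved. The cause of these shifts was not tested.

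Of 600 fold changes of the 10 genes against control under 20 alternatives, 586 kept their side of the threshold, 8 passed it, and 6 no longer did, all 6 of Lipc in p65 KO. The sign differed in 20, none of them called, and no gene with a log2 fold change beyond 0.13 in either direction was among them.

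Replicate numbers are shared between the groups, but same-numbered libraries did not deviate together (correlations of deviations from the group means from -0.232 to 0.114 over 13 pairs), so the numbers were not taken to pair mice. Within Nrf2 KO and within p65 KO the deviations of both libraries mirror each other by construction. The pairs are thus not independent, and the check cannot exclude pairing. With the replicate block, 0 of the 10 genes changed in p65 KO (Lipc -0.56, adjusted p = 0.0651), and 60, 1178, and 454 of all genes in Nrf2 KO, p65 KO, and DKO, against 99, 2032, and 743 without it. DESeq2 called 320 of all genes in Nrf2 KO and 1446 in DKO, and 417 were called in DKO when only the genotypes compared were fitted. Leaving out single libraries gave 18 to 119 in Nrf2 KO, 452 to 2139 in p65 KO, and 229 to 663 in DKO.

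Nrf2 KO and p65 KO had 2 mice each, and a p that misses the threshold does not show that levels were equal. The lowest value of any of the 10 genes in any library was 3729 normalized counts, of Apoa4.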
